A study of Mus musculus with 6 samples.

Results

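The genes described here are 43 genes of the unfolded protein response and the amino-acid stress response, chosen by their known roles: sensors in the endoplasmic reticulum (ER) membrane and cytosol, the transcription factors they switch on, stress outputs, ER chaperones, ER-associated degradation (ERAD) components, and amino acid transporters and enzymes. Each was read from the transcript cluster (the probe set of 1 transcript locus) that carries its symbol alone in the platform annotation, and, where several clusters did, from the one that was brightest on average. Of the 43 genes, 41 were measured this way, among 30176 genes in all. Pdia4 and Manf lie only on clusters shared with another gene and are not analysed here.

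RNA was measured on 6 arrays of splenic CD4+CD25+Nrp1+ regulatory T cells (Tregs), a gate that enriches Tregs made in the thymus, from untreated male B6 mice aged 10 to 12 weeks. The 3 CREB-KO mice were Foxp3creCREBfl/fl: both Creb1 alleles are flanked by loxP sites and Cre is expressed from the Foxp3 locus, so the deletion is meant for cells that express Foxp3. The 3 CREB-WT mice are called wild type in the labels, whereas the study's methods describe floxed mice without Cre, so the Cre allele and the loss of CREB cannot be told apart. The question is whether these stress genes differ in Tregs when CREB, a factor that binds the cAMP response element (CRE), is deleted.

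The unfolded protein response is set off when unfolded proteins build up in the ER. Ern1 (IRE1) splices Xbp1 mRNA, Eif2ak3 (PERK) phosphorylates eIF2α and thereby favours translation of Atf4, and Atf6 is cut in the Golgi to release a transcription factor. Eif2ak4 (GCN2) feeds into the same eIF2α step when amino acids run short, and Atf4 then raises amino acid transporters and enzymes. Atf4, Xbp1, Atf6 and Creb3 are basic leucine zipper proteins like CREB, and some of their DNA sites resemble the CRE. Splicing, cleavage, phosphorylation and translation are not read by these arrays, which report total transcript signal per cluster.

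Many of these genes are known for particular DNA elements in their promoters, and matches to them are shown before the values of each group. Promoters of 250 bases before and 50 bases after the start site were taken from RefSeq (GRCm38.p6) for 38 of the 41 measured genes and for 27025 genes in all, and 6 motifs were searched on both strands. The ER stress element (ERSE) was CCAAT and CCACG with 9 free bases between them, and the shorter ERSE-II was ATTGG and CCACG with 1 free base between them. The core of the C/EBP-ATF response element (CARE), which Atf4 binds, was TGATGNAA. The CRE was TGACGTCA, its core TGACG, and the unfolded protein response element TGACGTGG, and the core is contained in both longer spellings. The stretches below are the matches in genes that the results return to, each in the direction of the motif with a few flanking bases and with the fixed motif bases in capitals.
Hspa5 ERSE: tcaCCAATcggaggcctCCACGacg
Dnajc3 ERSE: caaCCAATcagcgccaaCCACGacc
Creld2 ERSE: ggaCCAATtgaggctcgCCACGaga
Hsp90b1 ERSE: tcaCCAATcgtgcctcaCCACGcac
Syvn1 ERSE: caaCCAATcggcggtagCCACGgga
Dnajb11 ERSE-II: gcgATTGGcCCACGcct
Herpud1 ERSE-II: ctgATTGGgCCACGttg
Herpud1 CARE core: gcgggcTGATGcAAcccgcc
Asns CARE core: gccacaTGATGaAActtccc
Chac1 CARE core: caggagTGATGcAAcggcag
Trib3 CARE core: cccggcTGATGtAAacctga
Ppp1r15a CRE: ctccggTGACGTCAgcacag

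The motif bases of Hspa5 lie at chr2:34772025-34772043, those of Dnajc3 at chr14:118937827-118937845, those of Creld2 at chr15:88819520-88819538, those of the Hsp90b1 match shown at chr10:86705533-86705551 and those of Syvn1 at chr19:6046532-6046550. The 2 ERSE-II matches lie at chr16:22857852-22857862 (Dnajb11) and chr8:94386377-94386387 (Herpud1). The CARE cores lie at chr8:94386317-94386324 (Herpud1), chr6:7693225-7693232 (Asns), chr2:119351049-119351056 (Chac1) and chr2:152344039-152344046 (Trib3), and the CRE of Ppp1r15a at chr7:45526273-45526280. All are promoter matches within the window; those of Trib3 and Dnajb11 fall after the annotated start.

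An ERSE was found in 8 of the 38 promoters (21.1%), against 0.137% of all promoters. Its 8 holders were Calr, Canx, Creld2, Dnajc3, Hsp90b1, Hspa5, Pdia6 and Syvn1, all but Syvn1 chaperones or folding enzymes. ERSE-II was found in 2 (5.26%, against 0.0444% of all promoters) and the CARE core in 5 (13.2%, against 4.51%). The CARE core holders were Asns, Chac1, Herpud1, Slc7a11 and Trib3. For the CRE the shares lay close together: 1 gene, Ppp1r15a (2.63%), against 2.03% of all promoters. The CRE core was found in 14 (36.8%, against 23.0%) and the unfolded protein response element in 0, against 0.714%. A match describes letters in a window and does not show binding. As many of these genes were chosen for roles tied to such elements, the higher shares are not a separate finding.

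**Figure D1:**
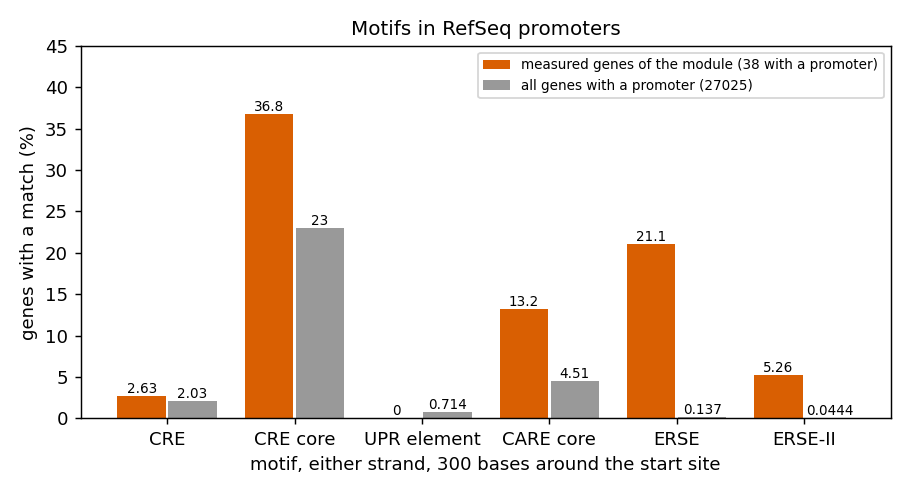
Share of promoters (percent, vertical axis) with each motif on either strand, for the 38 measured genes of the module with a promoter (orange) and all 27025 genes with one (grey). The ERSE stands at 21.1% against 0.137% and the CRE at 2.63% against 2.03%.

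The promoters of 4 genes are shown whole: Sdf2l1, the gene that passed the study's thresholds, Dnajb9 and Dnajc3, co-chaperones of Hspa5, and Herpud1, which holds the most kinds of motif. They were picked among the genes with the smallest unadjusted limma p that have a promoter in the RefSeq set. Slc7a5 and Atf6, with a smaller p than Herpud1, had none there. Motif matches are in capitals (CRE core in Dnajb9, ERSE in Dnajc3, and in Herpud1 a CRE core, a CARE core on the opposite strand and an ERSE-II). They lie at chr16:17132334-17132633, minus strand (Sdf2l1), chr12:44210019-44210318, minus strand (Dnajb9), chr14:118937682-118937981, plus strand (Dnajc3) and chr8:94386179-94386478, plus strand (Herpud1), and are printed along the gene's own strand.
Sdf2l1: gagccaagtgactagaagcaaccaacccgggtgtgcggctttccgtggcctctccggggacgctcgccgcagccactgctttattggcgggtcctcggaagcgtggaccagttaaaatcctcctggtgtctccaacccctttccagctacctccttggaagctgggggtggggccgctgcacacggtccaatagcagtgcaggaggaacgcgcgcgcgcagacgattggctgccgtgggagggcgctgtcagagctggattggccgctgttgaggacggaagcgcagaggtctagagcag
Dnajb9: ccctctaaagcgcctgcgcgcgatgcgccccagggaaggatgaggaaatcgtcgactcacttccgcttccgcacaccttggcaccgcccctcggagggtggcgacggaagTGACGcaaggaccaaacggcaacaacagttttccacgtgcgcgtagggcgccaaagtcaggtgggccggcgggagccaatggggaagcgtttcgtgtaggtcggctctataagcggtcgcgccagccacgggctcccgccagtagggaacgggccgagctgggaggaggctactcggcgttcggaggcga
Dnajc3: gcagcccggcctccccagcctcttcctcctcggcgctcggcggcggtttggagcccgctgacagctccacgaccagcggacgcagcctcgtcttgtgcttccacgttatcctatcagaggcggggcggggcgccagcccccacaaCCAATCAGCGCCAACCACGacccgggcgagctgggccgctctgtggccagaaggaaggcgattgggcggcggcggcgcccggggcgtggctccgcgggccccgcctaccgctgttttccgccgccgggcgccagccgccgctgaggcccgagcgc
Herpud1: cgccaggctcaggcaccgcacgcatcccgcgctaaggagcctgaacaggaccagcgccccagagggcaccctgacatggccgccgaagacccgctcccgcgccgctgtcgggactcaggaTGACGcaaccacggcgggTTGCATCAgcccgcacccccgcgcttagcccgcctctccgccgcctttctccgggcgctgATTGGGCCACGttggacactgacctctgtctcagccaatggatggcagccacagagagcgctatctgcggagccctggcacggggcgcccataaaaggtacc

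The Sdf2l1 promoter held none of the 6 spellings, nor did those of Creb3 and Atf6b.

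Array medians over all clusters lay between 4.55 and 4.58 (log2) for CREB-KO and between 4.48 and 4.53 for CREB-WT, and arrays correlated at 0.980 to 0.988. Creb1, the targeted gene, read 14.10, 14.39 and 14.79 on the arrays labelled CREB-KO, against 13.30, 13.94 and 13.34 on those labelled CREB-WT. The signal thus went against the labels (difference 0.90 ± 0.24 SE, adjusted p = 0.850 by limma), and with an unadjusted limma p of 0.00935 Creb1 passed as higher the thresholds of 1.5-fold and an unadjusted p under 0.05 that are used below. A probe outside the deleted exons checks nothing, and it is not known here which exons this cluster covers, so every direction below is between arrays as labelled. T cell markers were present throughout (Cd3e at 16.78 to 17.36 and Cd4 at 12.98 to 14.09 over the 6 arrays), while Foxp3 was not analysed here.

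Of the 41 measured genes, 1 differed between CREB-KO and CREB-WT Tregs by the study's own thresholds: Sdf2l1, an ER chaperone cofactor, which was lower in CREB-KO by limma. The study's array methods do not name the test behind their p, while its general statistics name Student's t-test. With that t-test in place of limma, Sdf2l1 missed the p threshold, and 0 of the 41 passed. A gene was called past the study's thresholds at a fold of at least 1.5 and an unadjusted p under 0.05, which 0.915% of all genes passed as higher and 0.666% as lower (1.49% and 1.25% of the 15088 genes above the median level). Here 0 genes passed as higher and 1, Sdf2l1, as lower, and 1 had an unadjusted p under 0.05, as did 5.63% of all genes. Beside these shares, 1 gene of 41 past the thresholds does not set the module apart. No adjusted p was under 0.05, here (0.856 to 0.999) or among all genes (0.0%). Differences ran above 0 for 21 genes and below 0 for 20, with a median of 0.0097 (log2), against 0.036 over all genes and 0.011 over the genes above the median level. Quantile normalization gave 17 above 0 and 24 below (median -0.046) and centring each array on its median 16 and 25 (median -0.054). Over all 30176 genes, 17799 differences lay above 0 as deposited, 13782 after quantile normalization and 13033 after median centring. Of the 15088 genes above the median level, 7833 did as deposited. The median size of a difference among the 41 genes was 0.12, as over all genes (0.12), and 0.16 over the genes above the median level, where 37 of the 41 lay.

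The 3 CREB-KO values lay wholly above the 3 CREB-WT values for 1 gene, Dnajc3, and wholly below for 1, Sdf2l1, whereas 39 overlapped. Among all genes 7.86% lay wholly above and 3.73% wholly below, and among those above the median level 5.83% and 5.08%, and 1 gene of 41 is a smaller share than any of these. The precision differed from gene to gene. The 95% interval of the difference stayed within 1.5-fold in either direction for 21 of the 41 genes and within 2-fold for 34. It reached beyond 2-fold for Slc7a5, Slc3a2, Shmt2, Ppp1r15a, Ddit3, Dnajb9 and Sdf2l1. In sorted bulk RNA, fewer cells of a type and less RNA per cell cannot be told apart.

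**Figure D2:**
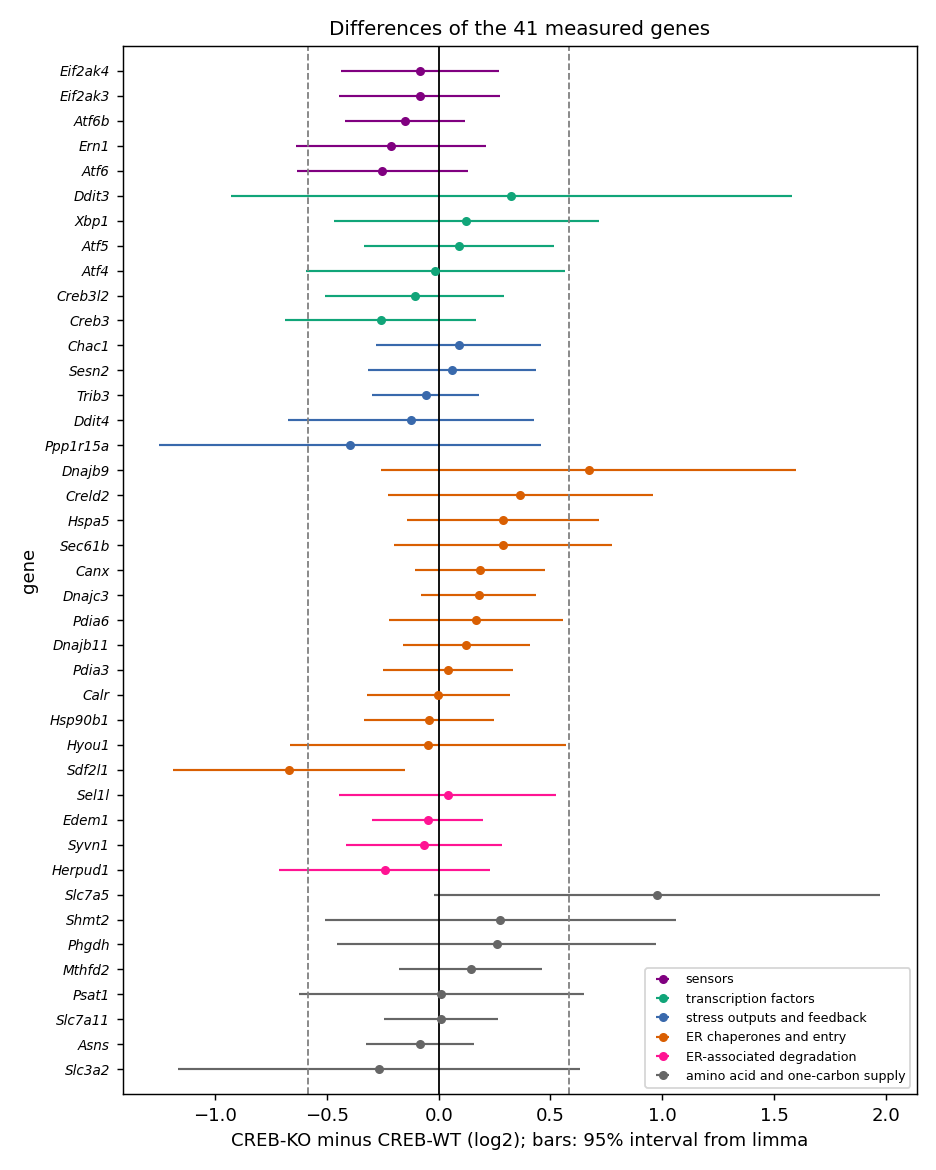
Difference between CREB-KO and CREB-WT (log2, horizontal axis) for the 41 measured genes in their role groups, points with 95% intervals from limma over 3 arrays each. Dashed lines mark 1.5-fold; Sdf2l1 is the gene whose interval lies wholly off 0, all 5 sensors lie left of 0 and 9 of 13 chaperones right of it.

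Among the sensors, all 5 differences lay below 0 (median -0.15), also after quantile normalization or median centring, and none passed the thresholds. Atf6, the sensor cleaved in the Golgi, read 7.68, 8.00 and 8.11 in CREB-KO against 8.27, 7.98 and 8.30 in CREB-WT (-0.25 ± 0.16 SE, adjusted p = 0.874). Its relative Atf6b read 8.77, 8.81 and 8.59 against 8.87, 8.77 and 8.98 in CREB-WT (-0.15 ± 0.11, adjusted p = 0.888). For both, 1 or more CREB-KO arrays lay within the CREB-WT range. Ern1, the kinase and RNase that splices Xbp1, read 6.12, 6.44 and 5.84 in CREB-KO against 6.39, 6.19 and 6.47 in CREB-WT (-0.21 ± 0.18, adjusted p = 0.907). The eIF2α kinases Eif2ak3 (-0.085) and Eif2ak4 (-0.084), outside the rule for named genes, had the smallest differences of the group. Eif2ak3 read 6.87, 6.80 and 6.94 in CREB-KO against 7.02, 6.67 and 7.17 in CREB-WT. Eif2ak4 read 6.48, 6.33 and 6.32 against 6.60, 6.60 and 6.18 in CREB-WT. For both, the CREB-WT arrays held the highest and the lowest value, so the direction of these differences is not firm. All 5 intervals stayed within 2-fold. Errors beside differences are standard errors, and adjusted p-values are limma's over all 30176 genes.

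The transcription factors were split, with 3 differences above 0 and 3 below (median 0.04) and none past the thresholds. Creb3, a membrane-bound factor of the CREB3 family that is released by cleavage, read 8.06, 8.64 and 8.34 in CREB-KO against 8.41, 8.69 and 8.73 in CREB-WT (-0.26 ± 0.18, adjusted p = 0.875). Its relative Creb3l2 read 6.76, 7.18 and 7.35 against 7.17, 7.19 and 7.26 in CREB-WT (-0.11 ± 0.17, adjusted p = 0.950), where CREB-KO replicate 1 alone lay well below the rest and the difference was 0.062 without it. Xbp1 and Atf4, given because they define the response and not through the rule for named genes, differed by 0.12 ± 0.24 and -0.015 ± 0.24. Xbp1 read 8.76, 9.30 and 8.36 in CREB-KO against 8.76, 8.48 and 8.81 in CREB-WT. Atf4 read 8.56, 8.67 and 8.83 against 9.20, 8.65 and 8.26 in CREB-WT, so that the CREB-WT arrays held both its highest and its lowest value.

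Ddit3 (CHOP), which drives death under lasting ER stress, was set apart by 1 array. It read 12.09, 10.28 and 10.10 in CREB-KO against 10.65, 10.52 and 10.33 in CREB-WT (0.32 ± 0.52, adjusted p = 0.950), and without CREB-KO replicate 1 the difference was -0.31. The cluster used is one that the array design does not place on a chromosome. A second cluster of Ddit3 showed the same array apart, at 11.39, 9.82 and 9.96 in CREB-KO against 10.12, 10.22 and 9.46 in CREB-WT. Heat-shock genes, read here as signs of handling stress and singled out after their values were seen, did not share 1 pattern on CREB-KO replicate 1. Hsph1 was highest there, at 12.28, 10.04 and 10.44 in CREB-KO against 10.83, 11.04 and 10.76 in CREB-WT. Hspa8 (19.67) and Hsp90aa1 (14.53) also had their highest value of the 6 arrays there, and their other values are given at the end. Hspa1a and Dnajb1 were instead lowest of the CREB-KO arrays there, Hspa1a at 4.15, 4.75 and 5.93 against 4.36, 4.02 and 4.17 in CREB-WT and Dnajb1 at 7.36, 7.58 and 7.85 against 7.35, 7.46 and 7.60 in CREB-WT. The part of handling stress in the Ddit3 value was not tested.

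The stress outputs showed no shared direction (2 above 0, 3 below, median -0.06, none past the thresholds). Ppp1r15a (GADD34) directs a phosphatase to eIF2α and holds the single full CRE found in the 38 promoters searched. It read 7.23, 8.34 and 7.32 in CREB-KO against 8.20, 7.55 and 8.33 in CREB-WT (-0.40 ± 0.35, adjusted p = 0.908). In each group 1 array lay on the other group's side, replicate 2 in both. Leaving out CREB-KO replicate 2 took Ppp1r15a past the thresholds (-0.75). No other single omission did, and without CREB-KO replicate 1 the difference was -0.20. Chac1, a glutathione-degrading enzyme, and Trib3, a pseudokinase induced by Atf4 and Ddit3, lay below the median gene level on the arrays and differed by 0.09 ± 0.15 and -0.06 ± 0.10. Chac1 read 3.39, 3.85 and 3.65 in CREB-KO against 3.46, 3.71 and 3.46 in CREB-WT, and Trib3 3.43, 3.49 and 3.62 against 3.63, 3.51 and 3.56 in CREB-WT. Signals this low say little about a difference. The mTORC1 inhibitors Ddit4 and Sesn2 differed by -0.12 and 0.06.

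The ER chaperones and translocation genes held both the gene past the thresholds and 9 of the 21 positive differences. Of these 13 genes, 9 lay above 0 with a median of 0.17, and 8 with medians of 0.08 and 0.10 after quantile normalization or median centring. Sdf2l1, an ER-lumen protein that works with Dnajb11 in the Hspa5 chaperone system, was 1.59-fold lower in CREB-KO. It read 7.33, 6.81 and 6.86 in CREB-KO against 7.57, 7.42 and 8.03 in CREB-WT, with no overlap. The difference was -0.67 ± 0.21 (95% interval -1.19 to -0.15), with an unadjusted limma p of 0.0191 and adjusted p = 0.856. As its groups did not overlap, an exact permutation test of 3 against 3 arrays gives the smallest p it can, 0.1. The call was lost without CREB-WT replicate 3 (-0.49) and without either of the CREB-KO replicates 2 (-0.58) and 3 (-0.60), as well as under the methods' t-test (unadjusted p of 0.0531), while CREB-KO replicate 1 lay close to the lowest CREB-WT array. Its partner Dnajb11 (ERdj3) differed by 0.12 ± 0.12, at 11.97, 11.78 and 11.81 in CREB-KO against 11.64, 11.65 and 11.90 in CREB-WT. Dnajb11, Hspa5 and Creld2 lie outside the rule for named genes and were chosen after their values were seen.

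Dnajb9 (ERdj4), a co-chaperone induced through Xbp1, read 9.62, 10.66 and 10.71 in CREB-KO against 9.82, 9.06 and 10.09 in CREB-WT (0.67 ± 0.38, adjusted p = 0.874). Replicates 2 and 3 of CREB-KO lay above every CREB-WT array, whereas replicate 1 fell among them, and without it Dnajb9 passed the thresholds (1.02). No other single omission took Dnajb9 past them, and without CREB-WT replicate 2 its difference was 0.37. Dnajc3 (p58IPK), another co-chaperone of Hspa5, read 13.22, 12.97 and 13.03 against 12.93, 12.91 and 12.83 in CREB-WT. Its groups did not overlap, yet the difference was small (0.18 ± 0.11, adjusted p = 0.874). Hspa5 itself (BiP), the main ER chaperone, read 12.43, 12.96 and 12.77 in CREB-KO against 12.28, 12.36 and 12.67 in CREB-WT (0.29 ± 0.18, adjusted p = 0.874). Creld2, a secreted protein induced by ER stress, read 9.48, 8.89 and 9.52 against 8.53, 9.21 and 9.04 in CREB-WT (0.36 ± 0.24, adjusted p = 0.874). In both of these the groups overlapped.

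The remaining genes of the group lay between -0.05 and 0.29. The lectin chaperones Canx and Calr differed by 0.19 and -0.0022, the disulphide isomerases Pdia6 and Pdia3 by 0.17 and 0.04, Hsp90b1 (GRP94) by -0.04, Hyou1, an Hspa5 exchange factor, by -0.05, and the translocon subunit Sec61b by 0.29. Grouped by promoter instead of role, the 8 genes with an ERSE had 5 differences above 0 and 3 below (median 0.17, from -0.07 to 0.36), with 0 past the thresholds. The 5 with a CARE core had 2 above and 3 below (median -0.06), and the 14 with a CRE core 6 above and 8 below (median -0.03), also with 0 past the thresholds. The ERSE genes are mostly chaperones, so the median of 0.17 for each group is not a separate result.

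**Figure D3:**
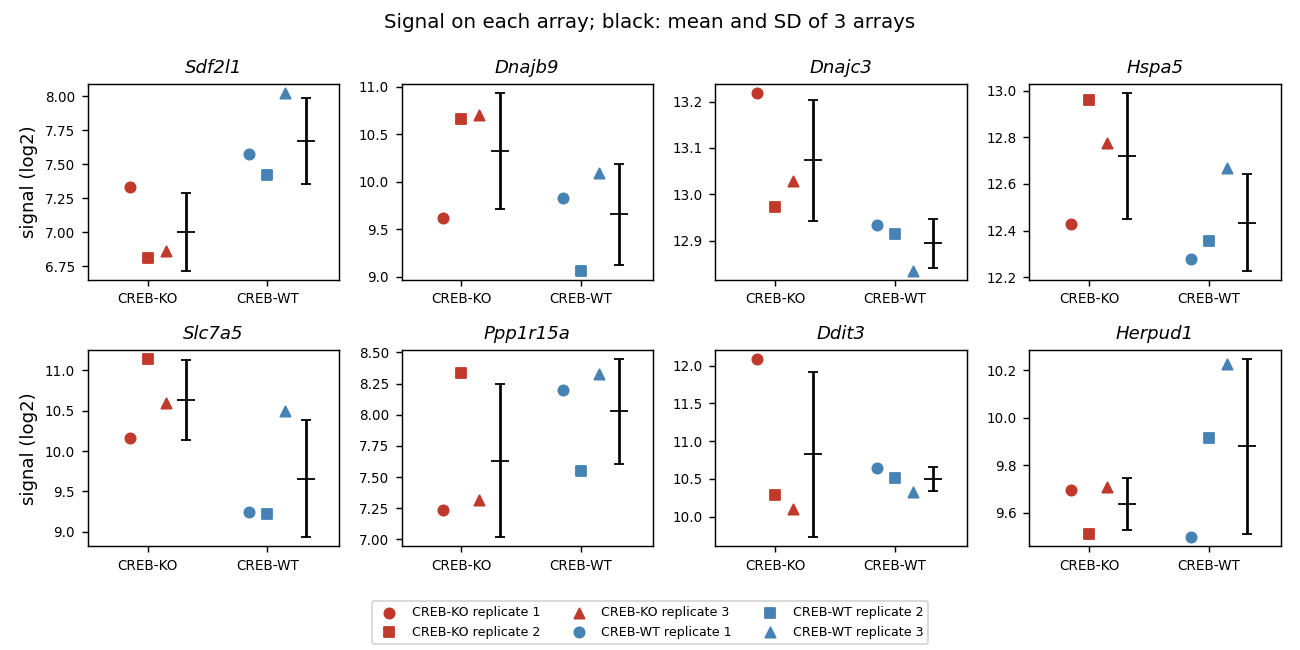
Signal (log2, vertical axes that differ by gene and do not start at 0) on each of the 3 CREB-KO (red) and 3 CREB-WT (blue) arrays for 8 genes, with the mean and SD in black. Sdf2l1 and Dnajc3 show no overlap, Ddit3 shows CREB-KO replicate 1 apart at 12.09, and Slc7a5 shows CREB-WT replicate 3 at 10.49 among the CREB-KO values.

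Among the ERAD genes 1 difference lay above 0 and 3 below, with a median of -0.06, and none passed the thresholds. Herpud1, a membrane protein of the ERAD complex, read 9.70, 9.51 and 9.71 in CREB-KO against 9.50, 9.92 and 10.23 in CREB-WT (-0.24 ± 0.20, adjusted p = 0.904). The CREB-KO arrays lay close together inside the wider CREB-WT range. Syvn1 (HRD1), the ubiquitin ligase of that complex, read 8.09, 8.55 and 8.18 against 8.41, 8.30 and 8.32 in CREB-WT (-0.07 ± 0.14, adjusted p = 0.963). Edem1, which delivers misfolded glycoproteins, read 10.80, 10.56 and 10.73 in CREB-KO against 10.72, 10.79 and 10.72 in CREB-WT (-0.05 ± 0.10, adjusted p = 0.963), and the Syvn1 adaptor Sel1l differed by 0.04. The Edem1 interval, from -0.30 to 0.20, was among the narrowest.

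The amino acid and one-carbon genes were the most variable group. Their median residual SD was 0.41 (log2), against 0.24 over the 41 genes and 0.25 over all genes above the median level, and 6 of the 8 differences lay above 0 (median 0.08) with none past the thresholds, and 4 of 8 after quantile normalization or median centring. Slc7a5 (LAT1), the transporter that brings leucine into T cells, had the largest difference of the module. It read 10.16, 11.14 and 10.60 in CREB-KO against 9.25, 9.22 and 10.49 in CREB-WT (0.98 ± 0.41, 95% interval -0.021 to 1.98), with an unadjusted limma p of 0.0537 and adjusted p = 0.872. CREB-WT replicate 3 lay among the CREB-KO values. The thresholds were passed without that array (1.40) and without CREB-KO replicate 1 (1.21). They were missed with any other single array left out, where the difference was as low as 0.72 (without CREB-KO replicate 2).

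Slc3a2 (CD98 heavy chain) pairs with Slc7a5 at the cell surface and is described for that reason, outside the rule for named genes. It read 8.35, 9.44 and 9.06 in CREB-KO against 9.02, 8.79 and 9.85 in CREB-WT (-0.27 ± 0.37, adjusted p = 0.945), the opposite sign to Slc7a5 with wide overlap. Whether these 2 differences differ from each other was not tested. Phgdh, the first enzyme of serine synthesis, read 7.13, 7.96 and 7.59 in CREB-KO against 6.83, 7.35 and 7.73 in CREB-WT (0.26 ± 0.29, adjusted p = 0.929). Mthfd2, a mitochondrial one-carbon enzyme, read 8.15, 8.17 and 8.35 against 7.88, 8.09 and 8.27 in CREB-WT (0.14 ± 0.13, adjusted p = 0.910). Neither separated the groups. The mitochondrial serine hydroxymethyltransferase Shmt2 differed by 0.28 ± 0.32 and the serine enzyme Psat1 by 0.013 ± 0.26. Asns, which makes asparagine, and the cystine transporter Slc7a11 lay below the median gene level, with differences of -0.084 and 0.0097.

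The amino acid genes varied together from array to array, and the arrays did not sort by genotype. As the mean deviation from each gene's 6-array mean, the 8 genes stood at -0.24, 0.34 and 0.15 on the CREB-KO arrays, against -0.27, -0.30 and 0.32 on the CREB-WT arrays, with group means of 0.08 in CREB-KO and -0.08 in CREB-WT. Each of the 8 genes had its lowest value on CREB-KO replicate 1, CREB-WT replicate 1 or CREB-WT replicate 2 and its highest on one of the other 3 arrays. The 13 chaperones and translocation genes stood at -0.02, 0.08 and 0.12 in CREB-KO against -0.15, -0.18 and 0.15 in CREB-WT, with the same 3 arrays highest. Of all 41 genes, 12 were highest on CREB-KO replicate 2 and 12 on CREB-WT replicate 3 (29.3% each), against 17.5% and 21.3% of the genes above the median level. CREB-WT replicate 2 was highest for 0 of the 41, against 11.8% of those genes.

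Lists of other genes moved across the same arrays. The 11 measured Treg and T cell markers stood at -0.36, 0.25 and 0.16 in CREB-KO against -0.14, -0.14 and 0.23 in CREB-WT (6 differences above 0 and 5 below, 0 past the thresholds). Higher on the same 3 arrays were the 13 genes of sorting stress (immediate early and heat-shock genes), at -0.06, 0.21 and 0.04 against -0.13, -0.28 and 0.21 in CREB-WT. The 18 macrophage and monocyte markers ran the other way, at 0.63, -0.61 and -1.49 in CREB-KO against 1.15, 0.63 and -0.31 in CREB-WT, and 18 of 18 differences lay below 0 (median -0.84) with 0 past the thresholds. Of these 18 markers, 17 lay above the median gene level. Over the 6 arrays the level of the amino acid genes correlated with the T cell markers at r = 0.92, with sorting stress at 0.94 and with the macrophage markers at -0.79. For the chaperones the values were 0.72, 0.91 and -0.82. The 11 B cell markers had 9 differences below 0 and the 10 dendritic cell markers 7, and 1 gene of each passed the thresholds as lower: Cd72 (-1.52 ± 0.42), a B cell surface receptor, and Itgax (-0.59 ± 0.23), the CD11c integrin chain. The B cell list stood at -0.26, -0.13 and -0.05 in CREB-KO against 0.26, 0.22 and -0.05 in CREB-WT, and its level correlated with the chaperones at -0.68 and with the amino acid genes at -0.45. The dendritic cell list correlated with these groups at -0.57 and -0.73. Of the 9 CD8 T and NK cell markers 7 differences lay below 0 with 0 past the thresholds. Their level correlated with the chaperones at 0.14, with the amino acid genes at 0.41 and with the sensors at 0.91, the highest among the role groups. Of the 4 measured erythroid and platelet markers 2 lay above 0 and 2 below, with 0 past the thresholds. These are descriptions over 6 arrays that were normalized together and span both genotypes, so a difference between genotypes can enter each correlation. The part of other cells or of handling in the differences was not tested. Plasma cells, which run a strong unfolded protein response, had 6 of 11 marker differences above 0 and 5 below with 0 past the thresholds. That list shares Xbp1 with the module, and Mzb1, Derl3, Txndc5 and Fkbp11 with the further pathway genes described below. Its level is therefore not separate from these pathways. Of the 11, 8 lay above the median gene level, among them Jchain, Prdm1, Irf4 and Slamf7, and 3 (Sdc1, Tnfrsf17 and Fkbp11) below it. Jchain, the joining chain of secreted antibodies, read 6.85, 6.14 and 5.59 in CREB-KO against 6.78, 5.58 and 6.14 in CREB-WT. The list stood at -0.09, 0.07 and 0.04 in CREB-KO against 0.02, -0.15 and 0.11 in CREB-WT, and its level correlated with that of all 41 genes at 0.92, of the amino acid genes at 0.83 and of the chaperones at 0.75.

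**Figure D4:**
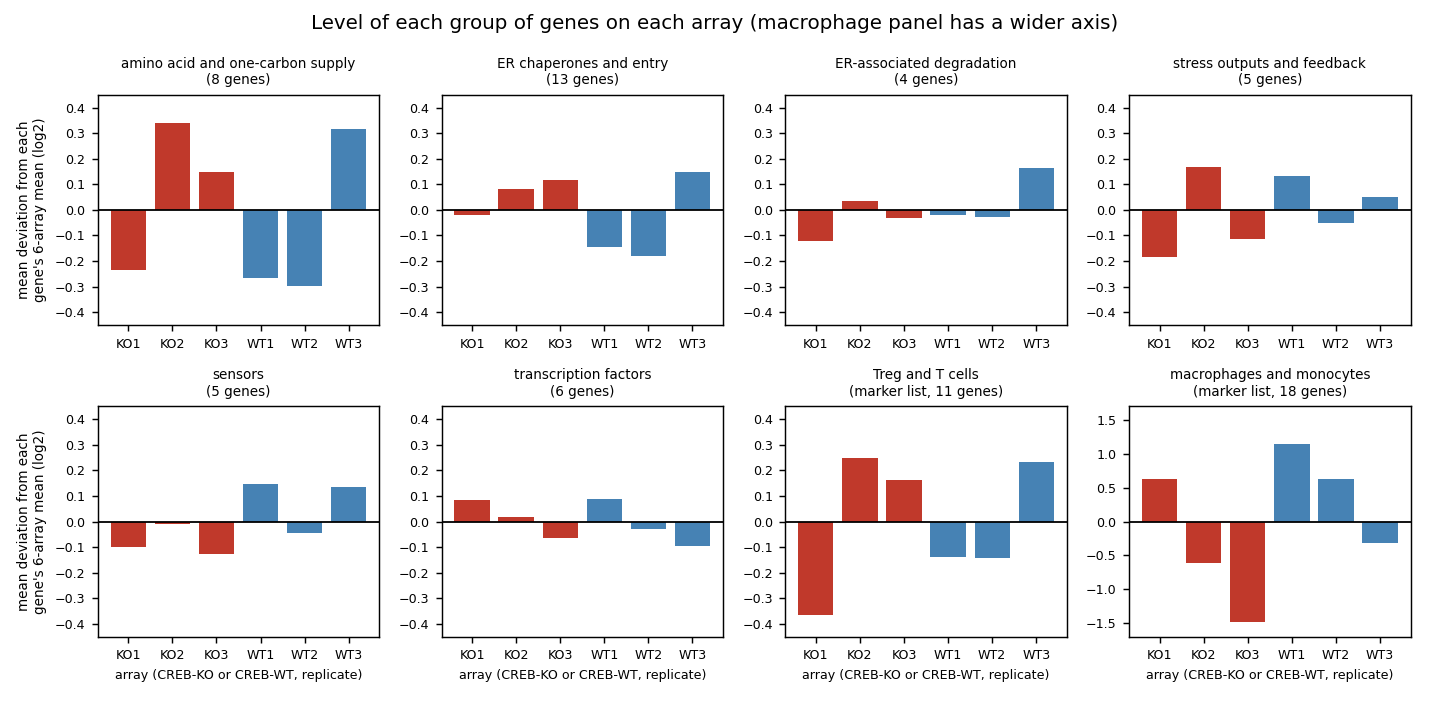
Mean deviation from each gene's 6-array mean (log2, vertical axis, wider in the macrophage panel) on each CREB-KO (red) and CREB-WT (blue) array for the 6 role groups and 2 marker lists. The amino acid genes reach 0.34 on CREB-KO replicate 2 and 0.32 on CREB-WT replicate 3, where the T cell markers are also at their highest (0.25 and 0.23).

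Of 130 further genes of the same pathways, 119 were measured. None passed the thresholds as higher or as lower (0.915% and 0.666% of all genes did), 4 had an unadjusted p under 0.05 (Map3k5, Sec24d, Hspa13 and Ssr4, against 5.63% of all genes), and 62 differences above 0 against 57 below (median 0.011, from -0.47 to 0.54). The CREB-KO values lay wholly above the CREB-WT values for 4 of the 119 (Map3k5, Hspa13, Ssr4 and Ppp1r15b) and wholly below for 4 (Sec24d, Mbtps1, Jdp2 and Ero1b), beside 7.86% and 3.73% of all genes. Map3k5 (ASK1), a kinase that acts below Ern1, read 9.51, 9.23 and 9.65 in CREB-KO against 8.99, 9.02 and 8.95 in CREB-WT, with no overlap (0.48 ± 0.13, adjusted p = 0.850). Sec24d, a coat protein of vesicles that leave the ER, read 5.70, 5.81 and 5.57 against 6.16, 6.00 and 6.23 in CREB-WT, again with no overlap (-0.44 ± 0.11, adjusted p = 0.850). Both missed the fold of 1.5, though Map3k5 reached it without CREB-KO replicate 2 (0.59). Without CREB-KO replicate 3 the Map3k5 difference was 0.38.

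Mbtps1, the protease that makes the first cut in Atf6, read 8.53, 8.73 and 9.01 in CREB-KO against 9.10, 9.15 and 9.01 in CREB-WT (-0.33 ± 0.14, adjusted p = 0.872). The third CREB-KO array and the third CREB-WT array were almost level. Hspa13, an Hsp70-family protein of microsomes, differed by 0.35 ± 0.14 (adjusted p = 0.872) at 7.54, 7.71 and 7.91 in CREB-KO against 7.54, 7.22 and 7.35 in CREB-WT. Outside the rule for named genes, the translocon-associated subunit Ssr4 differed by 0.54 ± 0.21, Ppp1r15b, which like Ppp1r15a directs a phosphatase to eIF2α, by 0.25 ± 0.12, and the ER oxidase Ero1b by -0.37 ± 0.16. Of the ERAD list, Derl3 read 5.04, 5.25 and 4.74 in CREB-KO against 4.83, 4.48 and 4.59 in CREB-WT (0.37 ± 0.17, adjusted p = 0.872). The lectin Erlec1 read 10.92, 11.14 and 10.81 against 10.75, 10.45 and 10.97 in CREB-WT (0.23 ± 0.17, adjusted p = 0.888), and both overlapped. Of the amino acid response list, Jdp2, a leucine zipper repressor, read 5.18, 5.08 and 5.04 in CREB-KO against 5.64, 5.35 and 5.20 in CREB-WT, with no overlap (-0.30 ± 0.14, adjusted p = 0.872). Aldh2, a mitochondrial aldehyde dehydrogenase, read 6.28, 5.84 and 6.01 against 6.83, 6.44 and 6.00 in CREB-WT (-0.38 ± 0.23, adjusted p = 0.874), and passed the thresholds without CREB-WT replicate 3 (-0.59). Without CREB-WT replicate 1 its difference was -0.18. None of these 8 further genes named by rule passed both thresholds in the comparison of all 6 arrays.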

How the data were processed

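RNA of CD4+CD25+Nrp1+ Tregs from 3 CREB-KO and 3 CREB-WT mice was measured on 6 arrays, and each array is 1 animal per the labels. The log2 values used here were deposited by the authors, who made them with RMA (background correction, normalization between arrays, summary per cluster), whose version no label or method names. The array type differs between the labels and the study's methods, and 1082 of 65956 clusters exceeded 16, so the scale may not be plain scanner brightness. A difference of 1 is read as 2-fold, which holds if the scale is a true log2 scale. The platform annotation, which can be old, gave 1 symbol for 30638 clusters, several for 2176 and none for 33142.

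Differences are CREB-KO minus CREB-WT from limma 3.58.1 (R 4.3.3, two-sided, no filter or further normalization) on 30176 genes, with Benjamini-Hochberg adjustment over all of them. The scripts were tested on simulated data. The study's thresholds are 1.5-fold and an unadjusted p of 0.05. As its array methods do not name the test that gave this p, limma's p stands in for it here. With 3 arrays on each side, the smallest exact permutation p is 0.1. The number of arrays limits the precision.

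Members and gene lists were chosen with earlier results of these data known. By rule, values on every array are given for the members past the thresholds or without overlap, the 3 members with the smallest p in each role group, and the 2 genes with the smallest p in each list of further pathway genes, and the text says where it names others. Of the named genes, the 6 with the smallest p and a RefSeq promoter had it read whole. As alternatives, the replicate number was fitted as a block and each array was left out in turn, and further alternatives were both arrays numbered 1 left out, other priors, tests and normalizations, a filter on level and other rules for clusters and symbols.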

Additional observations from a re-analysis of the deposited data

How the results depend on the processing

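Of 15 alternatives, 1 (symbols not updated) changed no symbol and is not counted, and 14 were fitted for each count and each of the 18 members named by rule, except that Chac1 and Trib3 have no value under the filter on level. Of the values of these members, 231 kept their direction and side of the thresholds, 6 passed the thresholds anew, 4 lost them and 9 changed sign. The 8 further genes named by rule, added after seeing the data, kept theirs in 110 values and passed anew in 2 (Map3k5 and Aldh2, each without 1 array). Leaving out 1 array at a time gave 276 to 447 genes higher and 224 to 506 lower over all genes, 0 to 2 members of the module higher and 0 to 1 lower, 0 to 2 further pathway genes higher and 0 to 1 lower, and a member median from -0.041 to 0.062. Without CREB-KO replicate 1, the differences of Creb3l2, Ddit3 and Syvn1 changed sign, and without CREB-KO replicate 2 those of Chac1 and Edem1 did. With 1 array left out, Creb3l2 ran from -0.24 to 0.062, Ddit3 from -0.31 to 0.69, Syvn1 from -0.21 to 0.026, Chac1 from -0.020 to 0.21 and Edem1 from -0.10 to 0.018. With both arrays numbered 1 left out, the counts were 467 higher and 423 lower over all genes and 1 member higher (Dnajb9, 1.11), and Creb3l2 turned to 0.044, Ddit3 to -0.23, Trib3 to 0.016 and Syvn1 to 0.058. The methods' t-test gave 145 higher and 107 lower over all genes and 0 members lower, since Sdf2l1 no longer passed. Over all genes 276 were higher and 201 lower as deposited, against 221 and 264 after quantile normalization and 196 and 305 with arrays centred on their medians, which moved the median of all genes to -0.018 and -0.027. Further pathway genes that passed with 1 array left out were Map3k5, Ssr4, P4hb and Mthfd1 (higher) and Slc38a7, Edem3 and Aldh2 (lower). The cause of these shifts was not tested.

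With the replicate number as a block, 314 genes were lower over all genes and 1 member was higher (Slc7a5, still 0.98). Deviations of arrays with the same number correlated at 0.26, -0.08 and 0.09. CREB-KO replicate 2 correlated best with CREB-WT replicate 3 (0.22), below the 0.26 of the arrays numbered 1. With 3 arrays in each group, these correlations cannot decide whether the numbers pair the animals. Signals of Chac1, Trib3, Asns and Slc7a11, below the median gene level, limit what can be seen of these 4 genes.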

Other observations

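Among the genes of sorting stress, 10 of 13 differences lay above 0 and 0 passed the thresholds. Jun read 6.61, 8.44 and 7.07 in CREB-KO against 6.70, 6.54 and 8.75 in CREB-WT, and Dusp1, a phosphatase of MAP kinases, read 9.87, 11.69 and 10.98 against 10.49, 10.22 and 11.12 in CREB-WT. Both were high on CREB-KO replicate 2 and CREB-WT replicate 3, the arrays on which most amino acid genes of the module were also high. The cytosolic chaperones Hspa8 and Hsp90aa1 had their highest values on CREB-KO replicate 1, at 19.67, 19.27 and 19.25 in CREB-KO against 19.25, 19.19 and 19.25 in CREB-WT for Hspa8, and at 14.53, 13.93 and 14.02 against 13.89, 14.08 and 14.09 in CREB-WT for Hsp90aa1.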
